A study of Mus musculus with 43 samples.

Results

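The transcriptome of inguinal white fat, a depot under the skin of the groin, was compared between wild-type adult mice kept at 4 C and at 22 C. The 2 groups make up 8 of the 43 samples of a series on beige fat around weaning and in the cold. Both groups are C57BL/6J mice aged 9 weeks, with 4 samples labelled 4 C and 4 labelled 22 C, and they were chosen by those labels. The sources used here do not give the time spent at 4 C, the sex of the mice or whether each sample is a separate animal. The p-values therefore measure only the spread between these libraries, which may be technical in part. Wild-type C57BL/6J mice at P28, postnatal day 28, kept at 22 C or 30 C (n = 4 each), serve below as a second contrast of cooler against warmer housing. Of 22622 genes in the adult table, 12118 reached 10 normalized counts in at least 4 libraries and were tested.

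Inguinal fat is mostly white fat, which stores triglyceride. In the cold, sympathetic nerves release noradrenaline, which acts through beta-adrenergic receptors and cAMP to start lipolysis and to turn on thermogenic genes in a subset of cells, the beige adipocytes. These cells burn fatty acids in mitochondria whose proton gradient is dissipated as heat by Ucp1. Other energy-spending cycles, of creatine and of calcium, are also known in beige fat. By its title, the series asks whether beige fat near weaning and beige fat recruited by cold use different pathways.

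The 5′ flanks of 4 genes on which the results turn are shown first: Ucp1, Fabp3 and Cyp2b10, which had the 3 largest rises on the log2 scale, and the clock gene Per3, which fell. Each is the stretch of 250 bases before the annotated start, 5′ to 3′ on the gene's strand, from RefSeq (GRCm38.p6). They lie at chr8:83290098-83290347 (plus strand), chr4:130308488-130308737 (plus strand), chr7:25897408-25897657 (plus strand) and chr4:151044666-151044915 (minus strand). Capitals mark TGACG, the core of the cAMP response element, in the first 3, and TTATGTAA, the D-box bound by Dbp, Hlf and their relatives, in Per3. Both were searched on both strands.
Ucp1: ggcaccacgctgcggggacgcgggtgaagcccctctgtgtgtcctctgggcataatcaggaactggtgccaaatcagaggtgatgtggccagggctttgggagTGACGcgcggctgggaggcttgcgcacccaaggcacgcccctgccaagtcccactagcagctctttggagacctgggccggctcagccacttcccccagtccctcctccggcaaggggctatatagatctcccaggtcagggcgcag
Fabp3: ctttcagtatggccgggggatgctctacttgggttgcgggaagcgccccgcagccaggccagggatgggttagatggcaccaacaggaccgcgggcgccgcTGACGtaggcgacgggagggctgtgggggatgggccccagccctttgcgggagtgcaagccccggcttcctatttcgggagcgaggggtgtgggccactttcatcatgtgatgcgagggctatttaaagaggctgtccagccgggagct
Cyp2b10: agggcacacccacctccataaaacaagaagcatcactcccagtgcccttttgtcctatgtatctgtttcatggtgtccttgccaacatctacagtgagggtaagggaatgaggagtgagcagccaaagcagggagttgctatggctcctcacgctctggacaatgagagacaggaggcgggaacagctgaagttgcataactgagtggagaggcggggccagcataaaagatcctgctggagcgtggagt
Per3: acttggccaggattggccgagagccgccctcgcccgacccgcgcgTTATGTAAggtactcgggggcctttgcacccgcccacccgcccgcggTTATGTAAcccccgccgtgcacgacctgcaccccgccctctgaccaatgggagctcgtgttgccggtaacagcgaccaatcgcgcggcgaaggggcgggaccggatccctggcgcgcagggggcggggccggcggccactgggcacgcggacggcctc
Ucp1 and Fabp3 each hold 1 match to TGACG, which 17.8% of 32851 promoters in the table hold, and 25.3% of those of tested genes. In Cyp2b10 these letters do not occur in this window. The Per3 flank holds 2 separate D-boxes, whereas 0.819% of all promoters hold 1 or more and 6 promoters hold at least 2. A match is a description of the letters and shows no binding.

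Library totals ran from 7003070 to 8885442 normalized counts, and depth estimated from the spacing of low values from 6273000 to 8674000 reads. Log2 values correlated at 0.857 to 0.975 between libraries of 1 temperature. Libraries of 1 temperature also stood apart from each other. Xist, the RNA of the inactive X chromosome, was at 12.6 or less in replicates 1 and 2 of each temperature and at 6861 or more in replicates 3 and 4 of each, so it is balanced between the groups. The first principal component (55.8% of the variance) separated 22 C replicates 1 and 2 and 4 C replicate 2 from the other 5 libraries. These 3 were low in skeletal muscle and mammary epithelium transcripts: Krt8, a keratin of epithelia, read 49.1, 11.3, 1109 and 818 normalized counts at 22 C and 811, 4.7, 2128 and 1922 at 4 C. The second component (21.3%) separated the temperatures. B cell markers were high in 22 C replicates 1 and 3, as given with the immune genes below. Adipocyte markers were strong in each library, with a mean of 13.8 to 14.7 on the log2 scale over 9 markers, which included Adipoq and Plin1, although their summed level ran from 191171 to 401571 at 22 C, where the high-Xist replicates 3 and 4 were lower, and from 230098 to 346669 at 4 C.

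**Figure D1:**
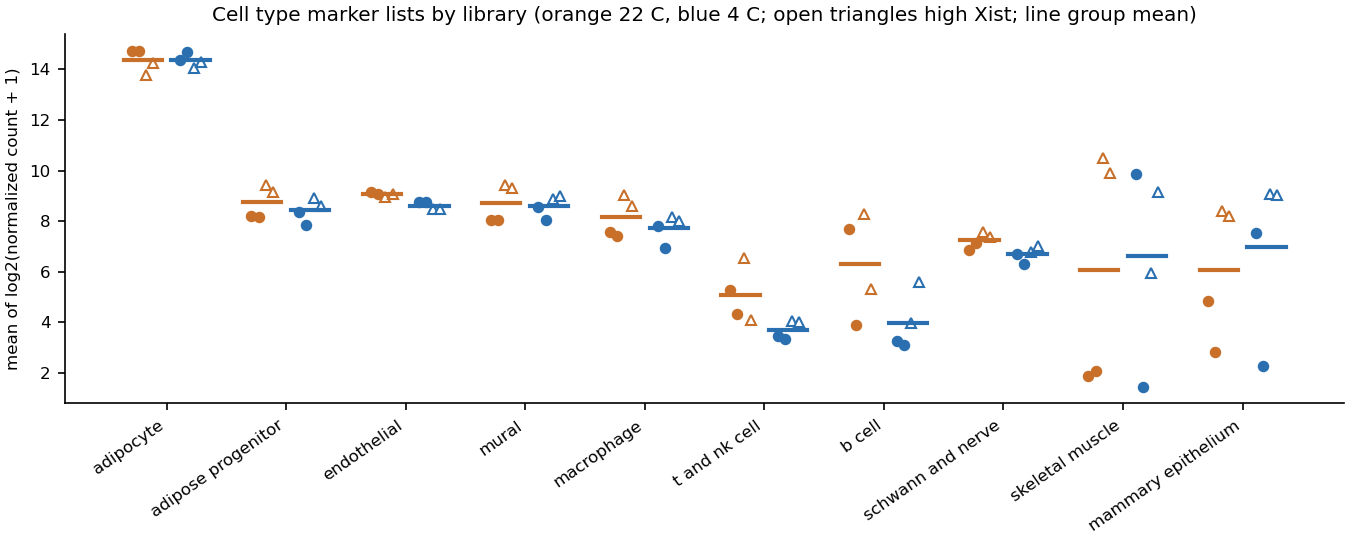
Mean log2(normalized count + 1) of 10 cell type marker lists in each library, orange for 22 C and blue for 4 C, circles for low and open triangles for high Xist, with a line at the group mean. Adipocyte markers are high in each library and span 13.8 to 14.7, whereas skeletal muscle and mammary epithelium spread widely within both temperatures and B cell markers are high in 2 libraries at 22 C.

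At 4 C, 542 of 12118 genes (4.47%) passed the limma test at an adjusted p under 0.05: 246 were higher (2.03%) and 296 lower (2.44%). Of these, 110 rose (0.908%) and 149 fell (1.23%) by at least 2-fold. The median log2 fold change over all tested genes was 0.02. Groups did not overlap for 17.3% of tested genes (9.15% higher and 8.12% lower at 4 C), and for each of the 542. Which library was left out mattered. Without 22 C replicate 1, 2, 3 or 4, 72, 95, 351 and 105 genes passed, and without 4 C replicate 1, 2, 3 or 4, 36, 152, 189 and 145. The 36 that passed without 4 C replicate 1 passed in each of the 8 fits, 14 of them higher and 22 lower. Of 118 called genes named here, 25 did so, among them Glud1, Hr, Igfals, Col15a1, Fam110c, Fam20c and Unc119. With high or low Xist as a covariate 2226 of 12118 genes passed, 1221 higher and 1005 lower, among them all 542. Those counts are the background for list members called with that covariate. With the mean of T, NK and B cell markers as a covariate, below the lymphocyte covariate, 4 passed, Elovl3, Cyp2b10, Fabp3 and Fam20c. The mean of the T and NK markers was itself higher in each library at 22 C (4.09 to 6.56 on the log2 scale) than in each at 4 C (3.33 to 4.06). The shares over all tested genes, 2.03% higher and 2.44% lower, and their median of 0.02 are the background for the gene lists in the main fit. At an unadjusted p under 0.05 limma passed 2886 of the 12118 genes, the background for list counts at that limit. In no alternative did any of the 542 genes that were tested change direction.

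Ucp1, which uncouples respiration to make heat, rose in the cold together with a core of genes of thermogenic fat. Ucp1 read 423, 403, 111 and 221 normalized counts at 22 C and 20254, 40150.3, 14800.4 and 9406 at 4 C, each set in the order of replicates 1 to 4, as throughout. Each library at 4 C was above each at 22 C, with 4 C replicate 2 highest and 4 C replicate 4 lowest of its group. The group means were 289 ± 149.5 normalized counts at 22 C and 21153 ± 13417 at 4 C (SD, n = 4 each), and the log2 fold change was 6.17 ± 0.53 (SE, adjusted p = 0.00248 by limma). Elovl3, an elongase that makes very long chain fatty acids in brown and cold-exposed fat, read 36.5, 22.6, 26.5 and 18.7 normalized counts at 22 C and 1460.3, 2329, 881 and 702 at 4 C. Its log2 fold change was 5.52 ± 0.37 (SE, adjusted p = 0.00177 by limma). Fabp3, the fatty acid carrier of heart and muscle that brown fat also uses, read 23, 48.9, 28.6 and 28.4 normalized counts at 22 C and 2198, 4520.1, 1628 and 860.4 at 4 C. Its groups were far apart too, with a log2 fold change of 5.92 ± 0.46 (SE, adjusted p = 0.00248 by limma). Gk, glycerol kinase, which returns glycerol to triglyceride synthesis, read 119, 173, 80.1 and 95.7 normalized counts at 22 C and 2209, 4547, 1732 and 1095 at 4 C. The change was 4.21 ± 0.42 (SE, adjusted p = 0.0041 by limma) on the log2 scale. In all 4 genes the order among the cold libraries was the same, with replicate 2 first, then replicates 1, 3 and 4. These 4 genes passed in each of the 8 leave-one-out fits.

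Of 25 tested members of the thermogenic list, 10 rose (40%), against 2.03% of all genes, and 0 fell, with a median log2 fold change of 1.41. The other 6 beside those 4 were Cpt1b (2.79, adjusted p = 0.0242), the gate of fatty acid entry into mitochondria in muscle and brown fat, Acot11 (2.05, adjusted p = 0.0306), an acyl-CoA thioesterase, Esrrg (1.72, adjusted p = 0.033), an orphan nuclear receptor of oxidative tissues, Slc27a2 (2.14, adjusted p = 0.0411), an acyl-CoA synthetase, Letmd1 (1.43, adjusted p = 0.0474) and Acsf2 (0.76, adjusted p = 0.048), given as log2 fold changes with limma adjusted p. Several of the best known beige markers missed the threshold. Cidea, a lipid droplet protein, read 1699.8, 2628, 771 and 761 normalized counts at 22 C and 5519, 11169, 3255 and 1716 at 4 C. Its groups overlapped, since 4 C replicate 4 lay within the 22 C range (limma adjusted p = 0.126). Cox8b, a cytochrome oxidase subunit, likewise overlapped at 641, 745, 209 and 253 normalized counts at 22 C and 706, 1476, 606 and 537 at 4 C, with a log2 difference of 0.94 ± 0.48 (SE, adjusted p = 0.277 by limma). Ppargc1a, the coactivator that drives mitochondrial biogenesis, did not overlap, at 224, 202, 114 and 159.9 normalized counts at 22 C and 384, 1032, 380.0 and 279 at 4 C, but its difference of 1.41 ± 0.40 (SE, adjusted p = 0.0773 by limma) missed the threshold. Cox7a1 differed by 1.91 ± 0.54 (SE, adjusted p = 0.0776 by limma) and Otop1, a proton channel, by 1.61 ± 0.61 (SE, adjusted p = 0.155 by limma). Prdm16, a regulator of beige fate, was at similar levels, 254 ± 79.2 normalized counts at 22 C and 205 ± 54.5 at 4 C (SD, n = 4 each). Dio2 was not analysed here. At 22 C these markers were higher in replicates 1 and 2, the low-Xist libraries, than in replicates 3 and 4. With Xist as a covariate 20 of the 25 rose, among them Cidea, Cox8b, Ppargc1a, Cox7a1 and Otop1, with adjusted p between 0.00663 and 0.0326. Leaving out 1 library left 4 to 7 risen, and the lymphocyte covariate left Elovl3 and Fabp3, with a list median of 0.90. The mean log2 level of the list ran from 7.35 to 8.01 at 22 C and from 8.94 to 10.21 at 4 C. Muscle also makes Fabp3, Cpt1b, Cox7a1 and Perm1. By limma 0 of 15 skeletal muscle markers passed, and 0 at an unadjusted p under 0.05. Their sums ran from 120 to 58832 at 22 C and from 78.4 to 40658 at 4 C. With so wide a spread, that result does not show that muscle content was alike. With the mean of the skeletal muscle list as a covariate 19 of the 25 thermogenic genes rose, with a median of 1.48, against 975 of all 12118 genes. The part of muscle content in these rises was not otherwise tested.

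**Figure D2:**
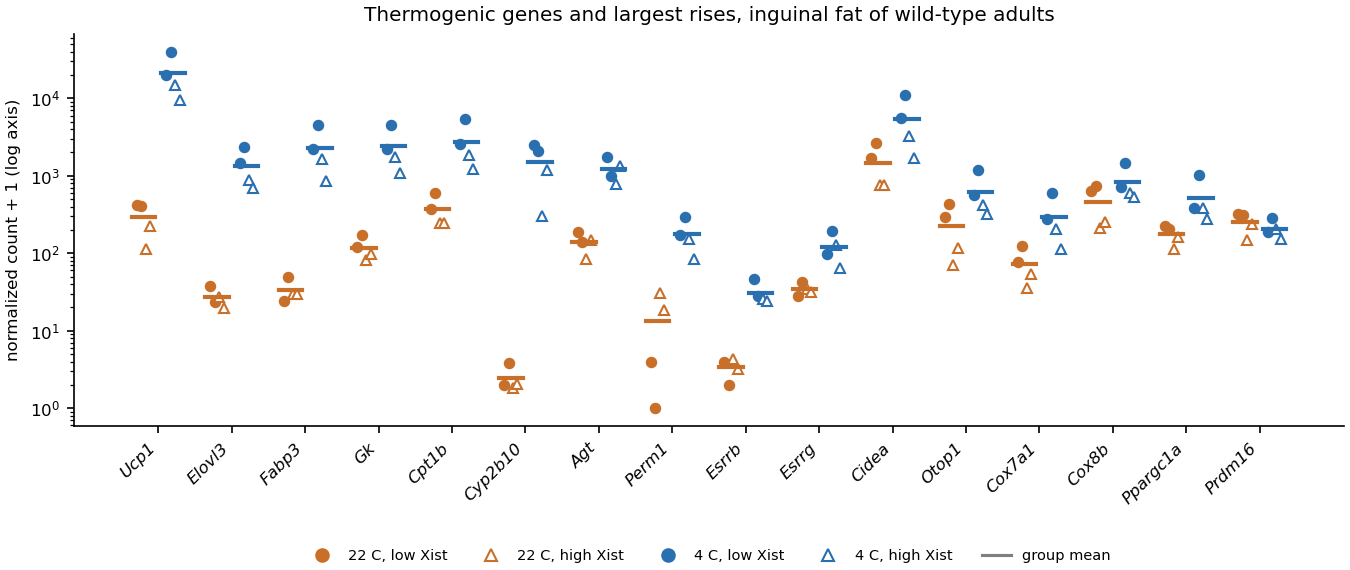
Normalized count plus 1, on a log axis, of 16 genes in each adult library, orange for 22 C and blue for 4 C, circles for low and open triangles for high Xist, with a line at the group mean. Ucp1, Elovl3, Fabp3, Gk and Cyp2b10 are apart in each library, whereas Cidea, Otop1, Cox7a1, Cox8b and Prdm16 overlap.

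The largest rise on the log2 scale was that of Cyp2b10, a cytochrome P450 best known as a target of the xenobiotic receptor CAR in liver. It read 0.98, 2.89, 0.808 and 1.08 normalized counts at 22 C and 2514, 2082, 304 and 1195 at 4 C. At 22 C these values are near the worth of 1 read, so the log2 fold change, 8.99 ± 0.63 (SE, adjusted p = 0.00177 by limma), depends on the added pseudocount and ran from 7.53 to 9.64 over the alternatives. Related Cyp2b genes have near-identical sequence, between which reads are divided by estimation. Sgk2, a serum and glucocorticoid regulated kinase, read 0, 0.788, 0.817 and 1.17 normalized counts at 22 C and 53.6, 148, 32.6 and 30.1 at 4 C. Ergic1, a protein of the compartment between endoplasmic reticulum and Golgi, read 6.88, 9.65, 12.2 and 3.25 normalized counts at 22 C and 246, 461, 139 and 90.2 at 4 C and rose by 4.56 ± 0.55 (SE, adjusted p = 0.00928 by limma). Perm1, a regulator of oxidative genes in muscle, read 2.92, 0, 29.4 and 17.4 normalized counts at 22 C and 172, 291, 152 and 83.5 at 4 C, where the 2 low-Xist libraries at 22 C were lowest. Its change was 4.54 ± 1.00 (SE, adjusted p = 0.0457 by limma). Lncbate10, a long noncoding RNA of brown fat, read 0, 0.944, 2.45 and 3.25 normalized counts at 22 C and 33.8, 116, 42 and 23.1 at 4 C. Kng2, a kininogen, read 2.92, 4.68, 7.42 and 14.2 normalized counts at 22 C and 126, 152, 82.9 and 54.8 at 4 C and Fam131c 1.01, 0, 7.27 and 2.17 normalized counts at 22 C and 29, 63.1, 39 and 16.3 at 4 C. Fam229b was listed at 0 in each library at 22 C and read 12.1, 10.7, 20.3 and 13.7 at 4 C. It was tested only because each cold library reached 10, as were Cyp2b10, Sgk2, Lncbate10 and Fam131c. Of the genes in this paragraph, Cyp2b10 and Ergic1 passed in each leave-one-out fit, Sgk2 and Kng2 in 7, Lncbate10 in 4, Fam229b in 3, and Perm1 and Fam131c in 1.

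Among genes in no list, the smallest p-values belonged to Aldh3b2, Aplnr, Slc28a2, Cd164l2 and Agt, which passed in each leave-one-out fit. Agt, angiotensinogen, the precursor of the vasoactive peptide angiotensin, read 185, 139, 83 and 146 normalized counts at 22 C and 1774, 1004, 776 and 1343 at 4 C. Its rise was 3.13 ± 0.30 (SE, adjusted p = 0.00399 by limma). Aldh3b2, an aldehyde dehydrogenase, rose by 1.46 ± 0.12 (SE, adjusted p = 0.00248 by limma) from an even level, 368, 328, 352 and 339 normalized counts at 22 C and 934, 1158, 798 and 959 at 4 C. Cd164l2 rose by 1.87 ± 0.16 (SE, adjusted p = 0.00248 by limma). Slc28a2, a nucleoside transporter that takes up adenosine and inosine, fell, with a log2 change of -1.47 ± 0.12 (SE, adjusted p = 0.00248 by limma), from 502, 539.5, 496 and 418 normalized counts at 22 C and 148, 175, 192 and 190.0 at 4 C. Further rises, picked after their values were seen, were Phospho1 (2.72, adjusted p = 0.013), a phosphatase of phosphocholine and phosphoethanolamine, Klb (1.91, adjusted p = 0.013), the coreceptor for Fgf21, Cdkn1a (2.61, adjusted p = 0.0254), an inhibitor of cyclin-dependent kinases, and Glud1 (1.54, adjusted p = 0.0133), glutamate dehydrogenase (limma).

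Fatty acid oxidation genes were all positive in the comparison, few of them past the threshold. Of 25 tested members 4 rose (16%, against 2.03% of all genes) and 0 fell, all 25 had a positive log2 fold change, and the median was 0.61, against 0.02 for all genes. Cpt1b read 376, 606, 244 and 248 normalized counts at 22 C and 2576, 5367, 1859 and 1222 at 4 C. Slc25a20, which carries acylcarnitines across the inner membrane, read 1137, 1393, 664 and 776 normalized counts at 22 C and 2729.8, 5005, 2161 and 1968 at 4 C, a change of 1.54 ± 0.33 (SE, adjusted p = 0.0443 by limma). Etfdh, which passes electrons from acyl-CoA dehydrogenases to ubiquinone, changed by 1.41 ± 0.28 (SE, adjusted p = 0.0374 by limma). The cold libraries were above those at 22 C for each of the 3. Acadm, the medium-chain dehydrogenase, read 6098, 7064, 2676 and 3597 normalized counts at 22 C and 11659, 16489, 7643 and 8434 at 4 C, also without overlap, with a log2 difference of 1.23 ± 0.36 (SE, adjusted p = 0.0858 by limma). Hadha, of the trifunctional protein, differed by 1.05 ± 0.29 (SE, adjusted p = 0.0747 by limma). With the Xist covariate 17 of the 25 rose. With the lymphocyte covariate 0 rose, 5 were negative and the median was 0.33, and leaving out 1 library left 0 to 2 risen.

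The TCA cycle list had the highest median of the mitochondrial lists, 0.83 over 25 tested genes, of which 1 rose (4%, against 2.03% of all genes) and 0 fell. Mdh1, cytosolic malate dehydrogenase, was the gene that passed, at 1.17 ± 0.27 (SE, adjusted p = 0.0498 by limma). Idh3a, a subunit of the NAD-dependent isocitrate dehydrogenase, read 3750.5, 4145, 1986 and 2772 normalized counts at 22 C and 8229.9, 14607, 5926 and 5329 at 4 C, without overlap, and differed by 1.37 ± 0.35 (SE, adjusted p = 0.0625 by limma). Sucla2, a succinyl-CoA ligase subunit, differed by 1.26 ± 0.31 (SE, adjusted p = 0.0578 by limma). Of 49 respiratory chain and ATP synthase genes, 0 passed in either direction, although 47 had positive log2 fold changes with a median of 0.54, and 6 were higher without overlap, as 9.15% of all genes were. At an unadjusted p under 0.05 limma passed 16 of the 49, and 2886 of all tested genes. Cycs, cytochrome c, read 2521, 2764, 1281 and 1867 normalized counts at 22 C and 5852, 9996, 3873 and 3423 at 4 C, a difference of 1.38 ± 0.37 (SE, adjusted p = 0.068 by limma), and Cox7c differed by 1.41 ± 0.38 (SE, adjusted p = 0.072 by limma). With the Xist covariate 24 respiratory chain genes and 17 of the TCA list rose, and 1 TCA gene fell. With the lymphocyte covariate 0 of either list passed, 18 of the 49 respiratory chain genes were negative, and the medians were 0.15 and, for the TCA list, 0.38. Mdh1 passed in 0 leave-one-out fits.

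In the mitochondrial ribosome list 2 of 26 rose (7.69%, against 2.03% of all genes), Mrps2 (1.01, adjusted p = 0.0332) and Mrps22 (1.01, adjusted p = 0.04999), with a median of 0.43. Catabolism of branched-chain amino acids had 2 risen of 20 (10%) and a median of 0.39. These were Hsd17b10, of isoleucine breakdown, at 1.33 ± 0.21 (SE, adjusted p = 0.0215 by limma), and Dbt, the core of the branched-chain ketoacid dehydrogenase, at 1.34 ± 0.24 (SE, adjusted p = 0.0298 by limma). Dbt read 1260.2, 1202, 697 and 901 normalized counts at 22 C and 2721, 3476, 1911 and 2176 at 4 C, so each cold library stood above each library at 22 C. Mitochondrial and related carriers of the Slc25 family had 3 risen of 21 (14.3%) and a median of 0.33. Beside Slc25a20 these were Slc25a17 (1.52, adjusted p = 0.0242), a carrier of peroxisomes, and Slc25a5 (0.94, adjusted p = 0.048), an ADP and ATP exchanger. Of 28 peroxisomal genes 3 rose (10.7%), with a median of 0.31: Abcd3 (1.04, adjusted p = 0.048), an importer of acyl-CoA, Acaa1b (0.83, adjusted p = 0.0378), a thiolase with a near-identical copy, and Slc27a2. None of these lists had a member that fell past the threshold. With the Xist covariate the risen counts were 12, 8, 8 and 10 in the same order, and 2 Slc25 genes fell. In each of the 4 lists 0 rose with the lymphocyte covariate, and the medians were 0.10, 0.10, 0.03 and 0.04. Of the risen genes in the mitochondrial and peroxisomal lists, 0 passed in each leave-one-out fit.

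**Figure D3:**
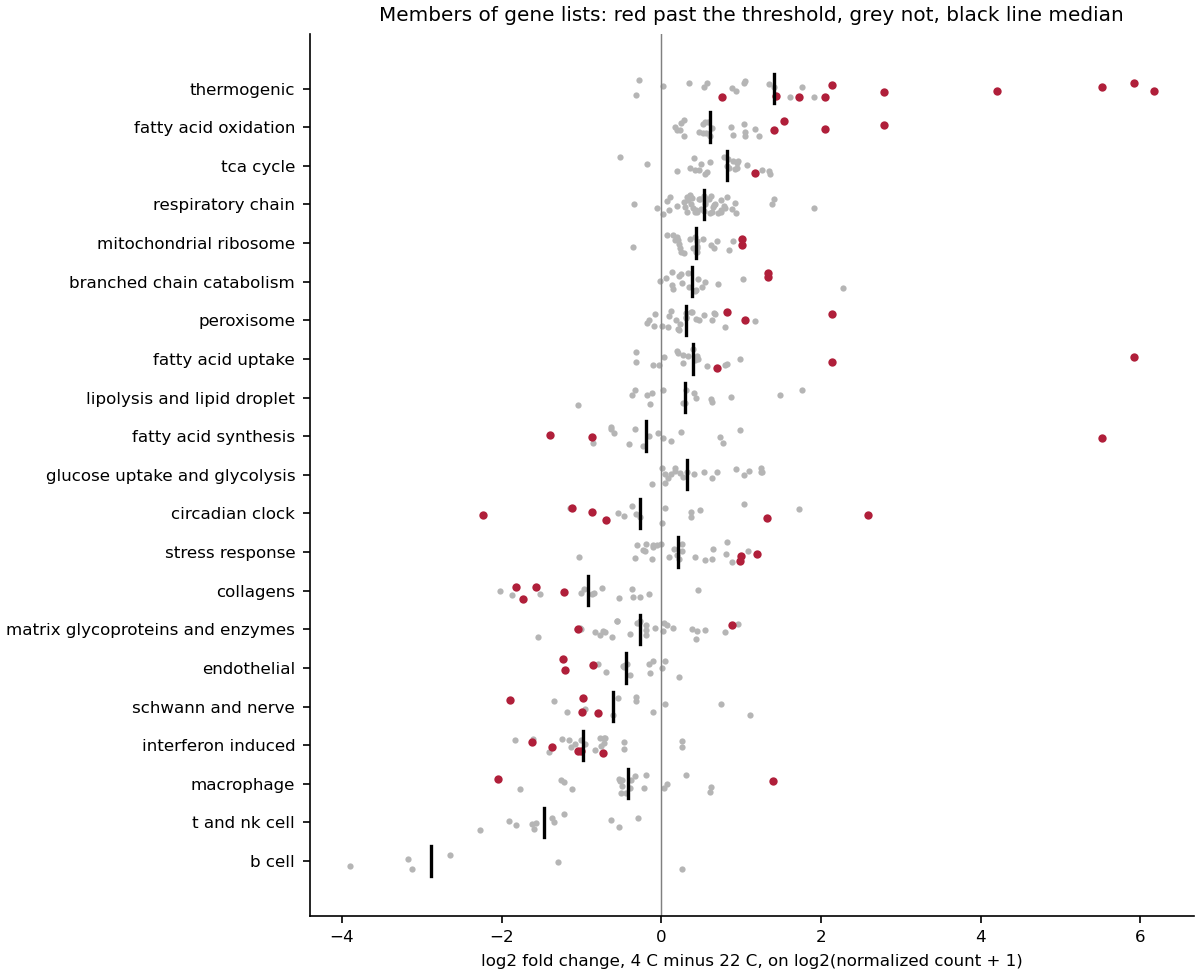
Log2 fold change, 4 C minus 22 C, of the tested members of 21 gene lists, red for members past the threshold and grey for the rest, with a black line at the list's median. Mitochondrial and oxidation lists lie mostly to the right of 0 with few red points, and collagen, interferon and lymphocyte lists mostly to the left.

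Lipid supply genes changed unevenly. Of 21 genes of fatty acid uptake 3 rose (14.3%, against 2.03% of all genes), namely Fabp3, Slc27a2 and Acsl5 (0.70, adjusted p = 0.046), an acyl-CoA synthetase, with a list median of 0.39. Of 16 genes of triglyceride synthesis and glycerol use, Gk alone rose (6.25%), and the median was 0.14. Gpam, the first enzyme of glycerolipid synthesis, read 2405, 2630.0, 3737 and 4375 normalized counts at 22 C and 9831, 8133, 5099 and 5653 at 4 C, without overlap, a difference of 1.12 ± 0.27 (SE, adjusted p = 0.0527 by limma). Of 17 lipolysis and lipid droplet genes 0 passed in either direction by limma, with a median of 0.30. At an unadjusted p under 0.05, 5 of them passed, against 2886 of all 12118 genes. Abhd5, the coactivator of adipose triglyceride lipase, differed by 0.88 ± 0.21 (SE, adjusted p = 0.0552 by limma), and Plin5, a droplet protein of oxidative cells, by 1.49 ± 0.53 (SE, adjusted p = 0.136 by limma). Plin4 was lower, at 58016, 66092, 30436 and 39254 normalized counts at 22 C and 24394, 26591, 20234 and 19225 at 4 C, by -1.05 ± 0.31 (SE, adjusted p = 0.0885 by limma). Of 18 genes of fatty acid synthesis Elovl3 rose and 2 fell (11.1%, against 2.44% of all genes), with a median of -0.19. Fads3, a desaturase-like enzyme, read 4982, 4850.4, 3215 and 4724 normalized counts at 22 C and 1192, 1839.9, 1706 and 2072 at 4 C, a change of -1.39 ± 0.21 (SE, adjusted p = 0.019 by limma), and Acss2, which makes acetyl-CoA from acetate, changed by -0.87 ± 0.18 (SE, adjusted p = 0.0382 by limma). Fasn, fatty acid synthase, overlapped, at 151914 ± 27398 normalized counts at 22 C and 119495 ± 43943 at 4 C (SD, n = 4 each), with 4 C replicates 3 and 4 lowest. With the Xist covariate 8 genes of uptake and 6 of triglyceride synthesis rose, 5 of lipolysis rose and 1 fell, and 3 of fatty acid synthesis rose and 4 fell. With the lymphocyte covariate Fabp3 and Elovl3 alone passed in these 4 lists, and the medians were 0.05 for uptake, -0.17 for triglyceride synthesis, -0.02 for lipolysis and -0.50 for fatty acid synthesis. Leaving out 1 library left 1 or 2 uptake genes risen and 0 to 2 synthesis genes fallen.

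In adrenergic and cAMP signalling 2 of 25 genes rose (8%, against 2.03% of all genes) and 0 fell, with a median of 0.07. Adra1a, the alpha-1A receptor, read 174, 185, 127 and 185 normalized counts at 22 C and 791, 691, 338 and 369.9 at 4 C, a change of 1.62 ± 0.29 (SE, adjusted p = 0.0298 by limma). Adcy3, the adenylyl cyclase induced by cold in brown fat, read 828, 849, 667 and 584 normalized counts at 22 C and 1859.8, 3976, 1701 and 1307 at 4 C, a change of 1.48 ± 0.32 (SE, adjusted p = 0.043 by limma). Both were without overlap. Adrb3, the beta-3 receptor of fat cells, was lower in each cold library, at 6795, 9179.6, 2628 and 3750.1 normalized counts at 22 C and 1445, 2054, 1779.5 and 1885 at 4 C, with replicates 1 and 2 highest at 22 C. Its difference of -1.49 ± 0.36 (SE, adjusted p = 0.0552 by limma) missed the threshold. Rgs2, which shortens G protein signals, read 181, 411, 166 and 199 normalized counts at 22 C and 696, 1008, 401 and 473 at 4 C, overlapping in 22 C replicate 2, a difference of 1.43 ± 0.36 (SE, adjusted p = 0.0587 by limma). Further receptor genes outside the lists, picked after their values were seen, rose: Adcyap1r1 (1.61, adjusted p = 0.0283), the receptor for the peptide PACAP, and Mc5r (2.16, adjusted p = 0.0466), a melanocortin receptor. In the fit with the Xist covariate 4 genes of the list rose and 2 fell, against 1221 and 1005 of all 12118 genes. With the lymphocyte covariate 0 passed, with a median of 0.03, and leaving out 1 library left 0 or 1 risen.

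Regulators of beige identity and other energy-spending cycles split in direction. Of 26 transcription regulators 3 rose (11.5%) and 2 fell (7.69%), against 2.03% and 2.44% of all genes, with a median of 0.11. Esrrb, an oestrogen-related receptor, read 2.98, 0.969, 3.33 and 2.22 normalized counts at 22 C and 45, 27.5, 24.5 and 23.2 at 4 C, near the worth of a few reads at 22 C. It reached 10 only at 4 C, so the filter fixed its lack of overlap, and it is among the 3 risen only through the cold group. Esrrg read 27.4, 41.4, 33.2 and 31.1 normalized counts at 22 C and 97.5, 192, 128 and 63.2 at 4 C. Zfp516, which activates Ucp1 transcription, rose by 0.61 ± 0.12 (SE, adjusted p = 0.033 by limma). Tle3, a corepressor that favours white over brown genes, fell, with a log2 change of -0.54 ± 0.10 (SE, adjusted p = 0.0345 by limma), and Dbp is described with the clock. Of 13 creatine and calcium cycling genes 2 rose (15.4%), with a median of 0.07: Ckb, creatine kinase B, at 1.34 ± 0.29 (SE, adjusted p = 0.0424 by limma), and Atp2a2, the calcium pump SERCA2, at 0.72 ± 0.15 (SE, adjusted p = 0.0387 by limma). The 2 enzymes that make creatine fell, Gatm at -1.03 ± 0.14 (SE, adjusted p = 0.013 by limma) and Gamt at -1.88 ± 0.38 (SE, adjusted p = 0.0374 by limma). Gatm read 111, 119.6, 129 and 129.8 normalized counts at 22 C and 52.4, 66.2, 59.5 and 59.8 at 4 C, so the cold libraries lay close together and below each library at 22 C. The cycling list's mean log2 level was lowest in the libraries lowest in skeletal muscle transcripts. It was 4.92 and 5.11 in 22 C replicates 1 and 2 and 4.73 in 4 C replicate 2. Its median was 1.03 within low-Xist and -0.87 within high-Xist libraries, against 4.09 and -2.92 for skeletal muscle markers. Values of this list with the skeletal muscle covariate are not given here, and the part of muscle content in its median was not otherwise tested. Of 21 genes of glucose uptake and glycolysis 0 passed (limma; 8 at an unadjusted p under 0.05), with 20 positive and a median of 0.32. Pfkp, the platelet phosphofructokinase, differed by 0.70 ± 0.16 (SE, adjusted p = 0.0512 by limma). In the glycogen list Phkg1, the catalytic subunit of phosphorylase kinase in muscle, was 1 of 18 past the threshold (5.56%), at 179, 184, 223 and 232 normalized counts at 22 C and 75.8, 74.4, 82.5 and 79.9 at 4 C, a change of -1.37 ± 0.13 (SE, adjusted p = 0.00399 by limma). Phkg1 passed in each leave-one-out fit. Among transcription regulators 6 rose and 3 fell with the Xist covariate, and 7 glycolysis genes rose. The lymphocyte covariate left 0 in the regulator, cycling and glycolysis lists, with medians of -0.05, 1.12 and 0.33. Leaving out 1 library left 0 to 2 regulators risen and 0 or 1 cycling genes risen and 0 to 2 fallen.

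Clock genes changed in both directions: of 19 tested, 2 rose (10.5%) and 4 fell (21.1%), against 2.03% and 2.44% of all genes, with a median of -0.27. The risen pair were the 2 partners of the activating complex. Clock read 265, 291, 304 and 311 normalized counts at 22 C and 869.9, 871, 606 and 636 at 4 C, a change of 1.33 ± 0.15 (SE, adjusted p = 0.00567 by limma), and Arntl, also called Bmal1, read 11.3, 9.36, 34.9 and 14.8 normalized counts at 22 C and 146, 120.1, 65.2 and 79.2 at 4 C, a change of 2.59 ± 0.43 (SE, adjusted p = 0.0242 by limma). Low values limit Arntl at 22 C, where replicate 3 was the highest. The 4 that fell were Dbp, Hlf, Per3 and Nr1d2, genes that this complex activates or that act against it. Dbp, a transcription factor that binds D-boxes, read 3302, 2943, 1609.5 and 2194 normalized counts at 22 C and 344, 539.5, 742 and 512 at 4 C, a change of -2.23 ± 0.28 (SE, adjusted p = 0.0109 by limma), without overlap. Per3, whose flank with 2 D-boxes is printed above, read 2201, 2474, 1662 and 2069.8 normalized counts at 22 C and 934, 1013, 1115 and 806 at 4 C, a change of -1.11 ± 0.15 (SE, adjusted p = 0.013 by limma). Hlf, a relative of Dbp, changed by -0.87 ± 0.17 (SE, adjusted p = 0.033 by limma), and Nr1d2, a repressor of Arntl, by -0.70 ± 0.15 (SE, adjusted p = 0.0441 by limma). The sources used here do not give the hour at which tissue was taken, and hour and temperature cannot be told apart for these genes. A D-box stood in the flanks of 3 of 286 promoters of fallen genes (1.05%), those of Per3, Timeless and Crtac1, in 0 of 238 of risen genes and in 0.501% of those of tested genes. Clock and Dbp passed in each leave-one-out fit, Per3 in 7, Hlf in 3, Arntl in 2 and Nr1d2 in 1. No clock gene (0 of 19) passed with the lymphocyte covariate, with a median of -0.04.

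Mest and Nnat were among the largest falls. Mest, an imprinted gene that rises as fat depots expand, read 102, 352, 84.6 and 264 normalized counts at 22 C and 13, 13.4, 40.1 and 20.6 at 4 C, a change of -3.04 ± 0.54 (SE, adjusted p = 0.028 by limma), with replicates 2 and 4 highest at 22 C. Nnat, another imprinted gene, read 20211, 20759.7, 3274 and 7074 normalized counts at 22 C and 1494, 1746, 1106 and 238 at 4 C, a change of -3.45 ± 0.78 (SE, adjusted p = 0.0473 by limma). It was higher in low-Xist than in high-Xist libraries at both temperatures. Pmepa1, an inhibitor of TGF-beta signalling, changed by -2.28 ± 0.40 (SE, adjusted p = 0.0272 by limma). Klf14, a transcription factor linked to fat cell size, changed by -2.22 ± 0.48 (SE, adjusted p = 0.0435 by limma). It read 12.89, 27.98, 17.16 and 38.04 normalized counts at 22 C and 3.628, 5.831, 2.327 and 4.781 at 4 C. As Klf14 reached 10 only at 22 C, the filter fixed its lack of overlap. Klf14 passed in 0 leave-one-out fits. Npr3, the clearance receptor for natriuretic peptides, read 3642, 4065, 1200.4 and 2852 normalized counts at 22 C and 569, 1141, 1092 and 831 at 4 C, without overlap, and its difference of -1.61 ± 0.39 (SE, adjusted p = 0.0552 by limma) missed the threshold. Of 13 tested genes in the adipocyte expansion list Mest alone passed (7.69%, against 2.44% of all genes), with a median of -0.39. Igfals, the acid-labile subunit that holds IGF in the circulation, was the 1 of 14 genes in the growth hormone and Stat5 list that passed, at -0.89 ± 0.12 (SE, adjusted p = 0.013 by limma). Trarg1, a trafficking regulator of the glucose transporter Glut4, picked after its values were seen, fell, with a log2 change of -1.76 ± 0.33 (SE, adjusted p = 0.0317 by limma). Of 21 adipokines and secreted factors 0 passed (limma; 3 at an unadjusted p under 0.05). Adipoq was at 27821 ± 7592 normalized counts at 22 C and 23259.6 ± 4064 at 4 C (SD, n = 4 each) and Lep at 6031 ± 1825 normalized counts at 22 C and 4210.0 ± 847 at 4 C (SD, n = 4 each). Bcl6, the repressor studied elsewhere in the series, was at 567 ± 182 normalized counts at 22 C and 625 ± 161 at 4 C (SD, n = 4 each), so neither these 2 adipokines nor Bcl6 differed beyond the spread. Rbp4 read 3682, 3696, 2218 and 3716 normalized counts at 22 C and 1219.9, 1924, 1312 and 2299.6 at 4 C, a difference of -1.00 ± 0.25 (SE, adjusted p = 0.0597 by limma). The expansion list had 3 genes that fell with the Xist covariate, and the adipokine list 1 that rose and 3 that fell. In these 3 lists 0 genes passed with the lymphocyte covariate, with medians of -0.69 for expansion, -0.49 for adipokines and 0.26 for growth hormone and Stat5. Leaving out 1 library left 0 to 2 expansion genes fallen.

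Other large falls had no list. Baiap2l2, a membrane-bending protein, read 193, 127, 59.5 and 43.4 normalized counts at 22 C and 6.32, 8.13, 6.98 and 5.74 at 4 C, a change of -3.54 ± 0.46 (SE, adjusted p = 0.0129 by limma), with low-Xist libraries highest at 22 C. Ntsr2, a neurotensin receptor, read 75.3, 47.9, 46.3 and 57.3 normalized counts at 22 C and 2.81, 4.68, 4.55 and 7.7 at 4 C, a change of -3.32 ± 0.35 (SE, adjusted p = 0.00516 by limma). Crtac1, a secreted cartilage protein, read 312, 533, 188 and 267 normalized counts at 22 C and 21.9, 39.9, 31.8 and 41.3 at 4 C, a change of -3.17 ± 0.33 (SE, adjusted p = 0.00516 by limma). In these 3 genes the lowest library at 22 C stood well above the highest at 4 C. For Baiap2l2 and Ntsr2 the filter fixed that lack of overlap, as they reached 10 only at 22 C. Ntrk3 and Kcne1l, given next, were also of this kind. Ntrk3, the receptor TrkC for neurotrophin-3, read 27.4, 23.8, 27.2 and 42.6 normalized counts at 22 C and 1.65, 4.31, 5.63 and 3.46 at 4 C, a change of -2.76 ± 0.43 (SE, adjusted p = 0.0215 by limma). Lctl changed by -2.26 ± 0.43 (SE, adjusted p = 0.0329 by limma), Mettl7b by -2.22 ± 0.29 (SE, adjusted p = 0.013 by limma) and Kcne1l, a potassium channel subunit, by -2.59 ± 0.53 (SE, adjusted p = 0.039 by limma). Ntsr2 and Crtac1 passed in each leave-one-out fit, Baiap2l2 and Mettl7b in 7, Ntrk3 in 4, Lctl in 2 and Kcne1l in 0.

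Several myelin genes of Schwann cells, the glia that wrap nerve fibres, fell at 4 C. In bulk tissue, fewer cells of a type and less RNA per cell cannot be told apart. Of 15 tested Schwann cell and nerve markers 0 rose and 4 fell (26.7%), against 2.44% of all genes, and the median was -0.61. Prx, periaxin, read 343, 361, 319.9 and 317 normalized counts at 22 C and 173, 162, 168 and 173 at 4 C, a change of -0.98 ± 0.09 (SE, adjusted p = 0.00399 by limma), and Mbp, myelin basic protein, read 1160.0, 1382, 1235 and 1119.5 normalized counts at 22 C and 665, 672, 557 and 563 at 4 C, a change of -1.00 ± 0.11 (SE, adjusted p = 0.00567 by limma). Replicates lay close together within each temperature and did not overlap between them. Pmp22 changed by -0.79 ± 0.13 (SE, adjusted p = 0.0254 by limma). Sox10, which marks Schwann cells whether or not they make myelin, overlapped, at 135 ± 92.7 normalized counts at 22 C and 148 ± 108 at 4 C (SD, n = 4 each, limma adjusted p = 0.98). Its spread within each temperature was wide, so the overlap does not show that Schwann cell content was alike. The summed level of the list, to which abundant genes add most, ran from 6870 to 7743 at 22 C and from 3841 to 4429 at 4 C. Its mean log2 level overlapped, at 6.86 to 7.58 at 22 C and 6.30 to 7.01 at 4 C. Prx and Mbp passed in each leave-one-out fit, and with the Xist covariate 7 markers fell. The lymphocyte covariate left 0, with a median of -0.53. Ugt8a, which makes the myelin lipid galactosylceramide, and Gpr37l1, a receptor of glia, were picked after their values were seen and also fell: Ugt8a (-1.77, adjusted p = 0.0283) and Gpr37l1 (-2.01, adjusted p = 0.0499). Gpr37l1 read 25.8, 23.2, 13.0 and 10.8 normalized counts at 22 C and 3.64, 2.38, 3.44 and 4.80 at 4 C. As it reached 10 only at 22 C, the filter fixed its lack of overlap. Ugt8a passed in 1 leave-one-out fit and Gpr37l1 in 0. Trpv1, the heat and capsaicin channel known from sensory nerves, was also picked after its values were seen and fell: Trpv1 (-1.77, adjusted p = 0.0254). Which cells of the tissue held its RNA was not tested.

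Some vessel genes fell too. Of 16 endothelial markers 3 fell (18.8%, against 2.44% of all genes) and 0 rose, with a median of -0.44. Aqp1, a water channel, read 3912, 4371, 2403 and 3032 normalized counts at 22 C and 1590.5, 1511, 1382 and 1344 at 4 C, a change of -1.20 ± 0.19 (SE, adjusted p = 0.0215 by limma). Robo4, a guidance receptor of endothelium, changed by -0.85 ± 0.15 (SE, adjusted p = 0.0271 by limma) and Cldn5, a tight junction protein, by -1.23 ± 0.28 (SE, adjusted p = 0.0466 by limma). Outside the list, Aplnr, the receptor for apelin, read 301, 276, 331 and 327 normalized counts at 22 C and 68.5, 94.5, 102 and 73 at 4 C, a change of -1.87 ± 0.16 (SE, adjusted p = 0.00248 by limma). Its replicates differed little within a temperature. Of 13 mural cell markers 2 fell (15.4%), Rgs5, of pericytes, at -1.09 ± 0.14 (SE, adjusted p = 0.0109 by limma), and Cspg4, also called NG2, at -1.44 ± 0.33 (SE, adjusted p = 0.0479 by limma). Rgs5 read 1953, 2076, 1419.5 and 1819 normalized counts at 22 C and 817, 952, 872 and 756 at 4 C, without overlap. The smooth muscle markers Acta2, Myh11 and Tagln had log2 differences of 0.27, 0.29 and 0.07, none past the threshold, and the list median was 0.02. With the Xist covariate 8 endothelial markers fell, and Aplnr passed in each leave-one-out fit. With the lymphocyte covariate 0 of either list passed, with medians of -0.47 for endothelial and 0.47 for mural markers, and leaving out 1 library left 0 to 3 endothelial and 0 to 3 mural markers fallen.

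Of 18 tested collagen genes 4 fell (22.2%, against 2.44% of all genes) and 0 rose, 17 were negative and the median was -0.92, against 0.02 for all genes. Col15a1, a basement membrane collagen, read 2851, 3595, 2602 and 3998 normalized counts at 22 C and 582, 1087, 959 and 1115 at 4 C, a change of -1.82 ± 0.23 (SE, adjusted p = 0.011 by limma). It passed in each leave-one-out fit. Col6a3, whose fragment is endotrophin, read 2191, 3307, 6395 and 6468 normalized counts at 22 C and 1086, 886, 1529 and 1666 at 4 C, a change of -1.73 ± 0.37 (SE, adjusted p = 0.0436 by limma), with the high-Xist libraries highest at both temperatures. Col6a2 changed by -1.57 ± 0.32 (SE, adjusted p = 0.0374 by limma) and Col5a3 by -1.21 ± 0.21 (SE, adjusted p = 0.027 by limma). The fibrillar collagens varied more between libraries: Col1a1 read 3379.8, 5707, 19036 and 12088 normalized counts at 22 C and 1327, 914, 3512 and 3809.8 at 4 C, overlapping, and Col3a1 11690.2, 17480.3, 49959 and 38652 normalized counts at 22 C and 4603, 4756, 9636 and 10482 at 4 C, with differences of -2.02 ± 0.64 (SE, adjusted p = 0.101 by limma) and -1.87 ± 0.51 (SE, adjusted p = 0.072 by limma). Among 31 other matrix genes, with a median of -0.27, Sparc, a collagen-binding glycoprotein, alone fell (3.23%), with a log2 change of -1.04 ± 0.20 (SE, adjusted p = 0.0337 by limma). Lox, which crosslinks collagen, rose by 0.88 ± 0.17 (SE, adjusted p = 0.0328 by limma) in that list, from 528, 675, 495 and 404 normalized counts at 22 C and 959.5, 892, 848 and 1140.2 at 4 C. With the Xist covariate 11 collagens fell, and 3 matrix genes rose and 9 fell. The lymphocyte covariate left 0 of either list, with medians of -0.72 for collagens and -0.04 for the other matrix genes, and leaving out 1 library left 1 to 3 collagens fallen. Of 13 adipose progenitor markers, cells that make much of this matrix, 0 passed (limma; 2 at an unadjusted p under 0.05), with a median of -0.36 and summed levels of 7371 to 18062 at 22 C and 5436 to 11349 at 4 C. The part of progenitor content in the collagen result was not tested.

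**Figure D4:**
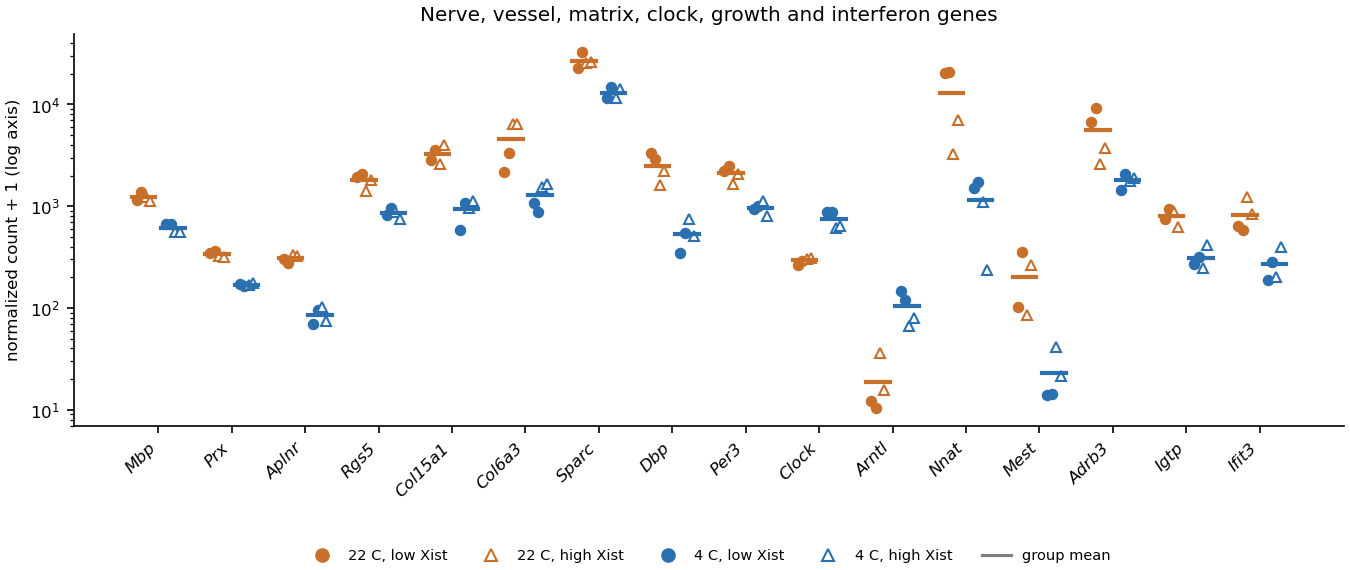
Normalized count plus 1, on a log axis, of 16 genes in each adult library, orange for 22 C and blue for 4 C, circles for low and open triangles for high Xist, with a line at the group mean. Myelin, vessel, collagen and D-box factor genes are lower in each cold library, whereas Clock and Arntl are higher.

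Of 24 interferon-induced genes 5 fell (20.8%, against 2.44% of all genes) and 0 rose, 22 were negative and the median was -0.98. Igtp, a GTPase of the interferon response, read 741, 948, 880.1 and 623 normalized counts at 22 C and 270.1, 319, 246 and 412 at 4 C, a change of -1.36 ± 0.19 (SE, adjusted p = 0.0151 by limma). Ifit3, an antiviral protein, changed by -1.62 ± 0.30 (SE, adjusted p = 0.0324 by limma), and the antigen presentation genes Tap1 by -1.05 ± 0.20 (SE, adjusted p = 0.0332 by limma) and Psmb8 by -1.01 ± 0.22 (SE, adjusted p = 0.0451 by limma). Zbp1, a sensor of nucleic acids, overlapped, at 135, 144, 443 and 244 normalized counts at 22 C and 48, 38.9, 45.6 and 144 at 4 C. H2-Ab1, an MHC class II chain picked after its values were seen, fell, with a log2 change of -1.50 ± 0.26 (SE, adjusted p = 0.0266 by limma). Lymphocyte markers were also mostly negative, none of them past the threshold. Of 12 T and NK cell markers all were negative, with a median of -1.47, and 0 passed (limma; 5 at an unadjusted p under 0.05). Their summed level ran from 205 to 1609 at 22 C and from 120 to 213 at 4 C. Of 6 B cell markers 5 were negative, with a median of -2.89, and 0 passed (limma; 5 at an unadjusted p under 0.05). The sums ran from 148 to 2114 and from 104 to 413. Cd79a, of the B cell receptor, read 252, 8.76, 392 and 21.3 normalized counts at 22 C and 1.82, 1.22, 1.13 and 31.6 at 4 C, so 22 C replicates 1 and 3 were far above the rest. Inguinal fat encloses a lymph node, and the sources used here do not say whether it was removed. Adding the Xist covariate, 15 interferon-induced genes fell. With the mean of the T, NK and B cell markers as a covariate 0 interferon-induced genes passed, and their median was -0.52. With 1 library left out 0 to 5 fell. Leaving out both 22 C replicates 1 and 3, an alternative chosen after seeing the data, left 3 genes in all past the threshold, Hr, Elovl3 and Fam20c.

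Macrophage markers did not move as 1 set: of 22, 1 rose and 1 fell (4.55% each, against 2.03% and 2.44% of all genes), with a median of -0.42. Aif1, a calcium-binding protein of macrophages, read 81.9, 58.9, 123 and 61.4 normalized counts at 22 C and 16.1, 11, 22.9 and 25.7 at 4 C, a change of -2.05 ± 0.34 (SE, adjusted p = 0.0242 by limma), and Gpnmb, of lipid-laden macrophages, rose by 1.40 ± 0.28 (SE, adjusted p = 0.0374 by limma). Among 22 chemokines and acute-phase genes, of which 1 rose and 1 fell with a median of -0.34, Cxcl13, which attracts B cells, read 64, 32.4, 115 and 39.6 normalized counts at 22 C and 558, 273, 196 and 340.4 at 4 C, a change of 2.49 ± 0.44 (SE, adjusted p = 0.0277 by limma), with each cold library above each at 22 C. Ccl8 fell, with a log2 change of -2.14 ± 0.40 (SE, adjusted p = 0.0324 by limma). Of 27 cell cycle genes 0 passed (limma; 3 at an unadjusted p under 0.05), although 25 were negative, with a median of -0.69. The macrophage and the chemokine list each had 1 gene that rose and 4 that fell with the Xist covariate. Adding the lymphocyte covariate left 0 past the threshold in the macrophage, chemokine and cell cycle lists, and the medians were 0.20 for macrophages, 0.00 for chemokines and -0.24 for the cell cycle.

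Genes of amino acid supply and of drug metabolism rose in part. Of 28 stress response genes 3 rose (10.7%, against 2.03% of all genes) and 0 fell, with a median of 0.21. Slc3a2, the heavy chain of amino acid exchangers, read 1017, 971, 869.5 and 848 normalized counts at 22 C and 2354, 2700.1, 1598 and 2013 at 4 C, a change of 1.20 ± 0.16 (SE, adjusted p = 0.013 by limma). Asns, asparagine synthetase, changed by 0.99 ± 0.19 (SE, adjusted p = 0.0332 by limma), and Dnajb9, a chaperone of the endoplasmic reticulum, by 0.98 ± 0.17 (SE, adjusted p = 0.0254 by limma). Cbs and Cth, the enzymes of transsulfuration, picked after their values were seen, also rose: Cbs (2.26, adjusted p = 0.0242) and Cth (1.90, adjusted p = 0.0234). Of 23 genes of xenobiotic metabolism 5 rose (21.7%) and 2 fell (8.70%), with a median of 0.62. Beside Cyp2b10, Gsta3, a glutathione transferase, read 641, 609, 342 and 570.1 normalized counts at 22 C and 3077, 2441, 1696 and 5312 at 4 C, a change of 2.45 ± 0.34 (SE, adjusted p = 0.0151 by limma), with 4 C replicate 4 highest. Fmo1, a flavin monooxygenase, changed by 1.20 ± 0.26 (SE, adjusted p = 0.0448 by limma), Aldh1a1, of retinaldehyde oxidation, by 0.90 ± 0.13 (SE, adjusted p = 0.0152 by limma), and Cyp2d22 by 0.68 ± 0.14 (SE, adjusted p = 0.0382 by limma). Gstt1 changed by -1.06 ± 0.20 (SE, adjusted p = 0.0311 by limma) and Gstm2 by -0.74 ± 0.16 (SE, adjusted p = 0.0422 by limma). Gsta, Gstm and Cyp2d genes have close copies, so their single values are uncertain. Of the stress response genes 7 rose and 1 fell with the Xist covariate, and of xenobiotic metabolism 9 rose and 3 fell. Of both lists Cyp2b10 alone passed with the lymphocyte covariate, with medians of 0.22 and 0.22, and leaving out 1 library left 0 to 3 stress response and 1 to 4 xenobiotic genes risen. Of immediate early genes 0 of 16 passed, and of cholesterol synthesis genes 0 of 23 (limma; 3 and 5 at an unadjusted p under 0.05).

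The effect of cooler housing was then compared between ages, 4 C minus 22 C in adults and 22 C minus 30 C at P28. The contrasts use different libraries, and both the age and the temperatures differ between them, which cannot be told apart. At P28, 547 of 12283 genes passed (4.45%), 389 higher (3.17%) and 158 lower (1.29%) at 22 C. Of 11618 genes tested in both, the difference passed for 387 (3.33%), more positive in adults for 159 (1.37%) and more negative for 228 (1.96%). Leaving out 1 adult library gave 145 to 470. Fabp3 had the largest of the 6 most significant positive differences: its log2 fold change was 5.92 in adults and 0.12 at P28, a difference of 5.80 ± 0.53 (SE, adjusted p = 0.000291). Agt was at 3.13 in adults and -0.33 at P28, a difference of 3.45 ± 0.32 (SE, adjusted p = 0.000614). Slc3a2 was at 1.20 in adults and -0.47 at P28, a difference of 1.67 ± 0.21 (SE, adjusted p = 0.000524), and Fam110c at 2.81 in adults and -0.73 at P28, a difference of 3.54 ± 0.51 (SE, adjusted p = 0.002). Each of these 4 rose in adults, and none passed at P28. Ttpa, the transfer protein for vitamin E, was at 1.42 in adults and -1.03 at P28, past the threshold in opposite directions, a difference of 2.45 ± 0.33 (SE, adjusted p = 0.00085). Slc10a6, a steroid sulfate transporter, was at 0.79 in adults and -1.65 at P28, a difference of 2.45 ± 0.35 (SE, adjusted p = 0.0018). It missed the threshold in adults (adjusted p = 0.125 by limma) and fell past it at P28 (adjusted p = 0.00516 by limma).

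On the negative side Aplnr was at -1.87 in adults and 0.56 at P28, a difference of -2.44 ± 0.25 (SE, adjusted p = 0.000259). Ednra, the endothelin A receptor of vessel walls, was at -0.72 in adults and 0.77 at P28, past the threshold in opposite directions, a difference of -1.49 ± 0.18 (SE, adjusted p = 0.000434). Ntsr2 was at -3.32 in adults and 0.46 at P28, a difference of -3.77 ± 0.46 (SE, adjusted p = 0.000434). Fam20c, a kinase of secreted proteins, differed by -2.11 ± 0.25 (SE, adjusted p = 0.000434), Hr, a corepressor of nuclear receptors, by -2.23 ± 0.27 (SE, adjusted p = 0.000434), and Unc119, a lipid-binding trafficking protein, by -1.58 ± 0.19 (SE, adjusted p = 0.000434). Each of these 6 genes fell in adults. Mest was at -3.04 in adults and 0.94 at P28, a difference of -3.98 ± 0.63 (SE, adjusted p = 0.00548), and Adrb3 at -1.49 in adults and 0.13 at P28, a difference of -1.62 ± 0.39 (SE, adjusted p = 0.048). Most thermogenic genes of the panel did not differ past the threshold. Ucp1 was at 6.17 in adults and 4.06 at P28, and the difference of 2.11 ± 0.65 (SE, adjusted p = 0.092) missed it. The same held for Cidea (0.90 ± 0.65 (SE, adjusted p = 0.531)), Ppargc1a (1.63 ± 0.42 (SE, adjusted p = 0.0619)), Cox7a1 (0.42 ± 0.58 (SE, adjusted p = 0.759)), Cox8b (-0.09 ± 0.51 (SE, adjusted p = 0.952)) and Otop1 (-0.76 ± 0.68 (SE, adjusted p = 0.62)). With standard errors of that size, a missed threshold does not show that the effects were alike. Elovl3 and Cyp2b10 were not tested at P28. Gk was the exception in this set, at 4.21 in adults and 1.50 at P28, a difference of 2.71 ± 0.48 (SE, adjusted p = 0.00925). Adipoq, Lep, Fasn and Bcl6 did not pass either, with adjusted p from 0.225 to 0.939. The limma model was fitted within each age, and p-values of differences were adjusted over the 11618 genes.

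**Figure D5:**
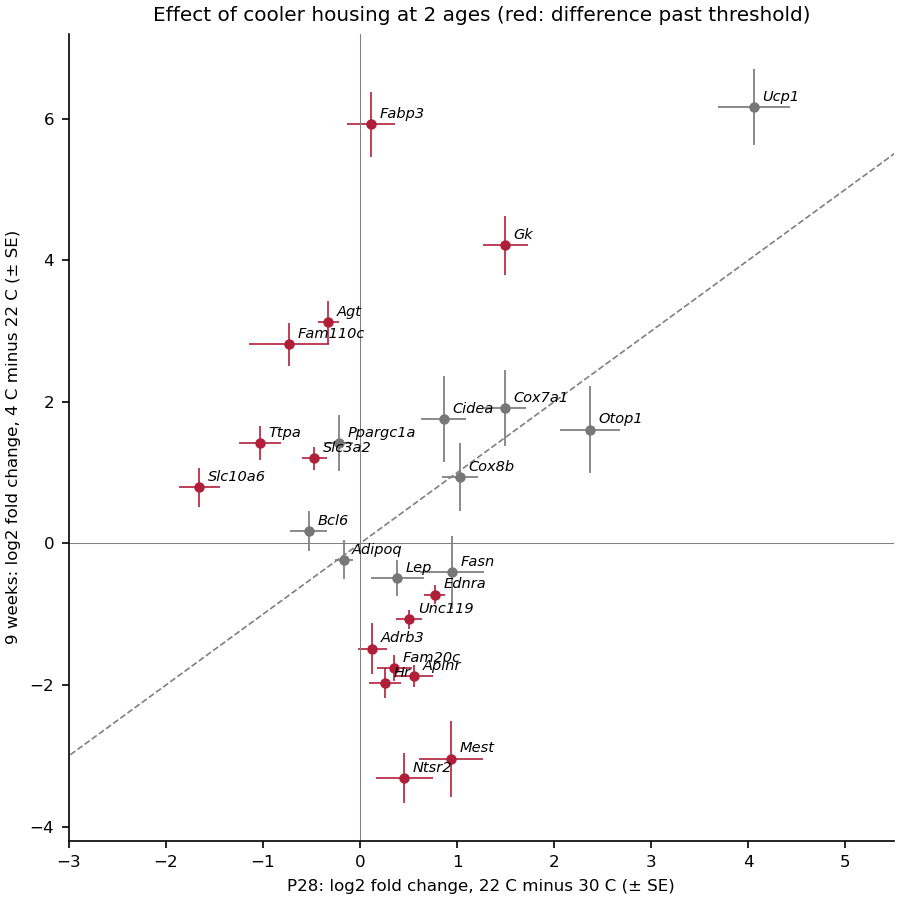
Log2 fold change of cooler against warmer housing at P28 (x axis, 22 C minus 30 C) and at 9 weeks (y axis, 4 C minus 22 C) for 25 genes, with bars of 1 SE and a dashed line of equality. Fabp3, Agt and Gk lie above the line and Mest, Ntsr2 and Aplnr below it in red, whereas Ucp1, Cidea, Cox7a1, Cox8b and Otop1 are grey, their difference not past the threshold.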

How the data were processed

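Poly(A) RNA of flash-frozen inguinal fat was sequenced from stranded libraries, per the labels' protocols. The authors deposited 1 table of normalized counts per comparison, a signal value that is not a whole number. The submitters' processing notes name kallisto, which estimates transcript abundance, DESeq2, which scales libraries, and mm10. The sources used here give no versions, annotation or settings. Low values were whole multiples of the worth of 1 read, within 0.02, for 26.6 to 44.2% of values, so reads were not recovered and the depth estimates are rough.

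Values were tested as log2(value + 1) with limma 3.58.1 in R 4.3.3, with a mean-variance trend, on genes that reached 10 in at least 4 libraries. Benjamini-Hochberg adjustment ran over all tested genes, and a gene was called at an adjusted p under 0.05. The pseudocount makes fold changes of low genes too small. The 2 ages were fitted within their own tables, and the difference of their log2 fold changes was tested against both standard errors with Welch degrees of freedom. On data simulated for the adult comparison (12118 genes, 200 changed), 58% of 2-fold and 87% of 4-fold changes were recovered, with 10 false calls. For P28 (12283 genes) these were 71%, 95% and 13. The simulated noise was independent between genes, whereas the real adult libraries shared variation, with 55.8% of the variance on the first principal component. The simulated rates may therefore not hold for the real comparisons.

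Gene symbols and promoters came from RefSeq tables (GRCm38.p6), in which 21 identifiers had no symbol. Named genes were a panel of 15, the 12 largest rises and falls among called genes without overlap, up to 4 members of each list with the smallest p and any called member, the 5 smallest p outside the lists and the 6 smallest p of each sign in the comparison of ages. Other genes named, including list members outside that rule such as Sox10, Prdm16, Acadm and Plin5, were picked after their values were seen. The comparison, the members of the lists and the panel were chosen with earlier results of these data known. A list is described by its counts and its median, to be read against the shares and the median over all tested genes. The alternatives were other pseudocounts (0.5 and 5), filters, rescalings, library weights, covariates, a replicate block and each library left out in turn. Some members of the lists are counted in them but not reported here by name.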

Additional observations from a re-analysis of the deposited data

Results flagged for a closer look

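In 9 of 299 groups of 4 libraries examined, for genes named in the text, 1 library lay far from the other 3; chance gives about 1 in 20. At 22 C, replicate 3 was low for Adra1a (127 normalized counts, others 174 to 185), Fads3 (3215, others 4724 to 4982), Asns (633, others 828 to 853) and Rbp4 (2218, others 3682 to 3716). Replicate 1 at 22 C was low for Dnajb9 (302, others 391 to 397). At 4 C, replicate 1 was low for Igfals (288, others 363 to 370.5) and Psmb8 (325, others 556 to 601). Replicate 4 at 4 C was high for Cd79a (31.6, others 1.13 to 1.82) and Zbp1 (144, others 38.9 to 48.0).

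The effect of cooler housing on the log2 scale was more positive in adults than at P28 for Fabp3 (difference 5.80), Fam110c (3.54), Agt (3.45), Gk (2.71), Ttpa (2.45), Slc10a6 (2.45) and Slc3a2 (1.67). It was more negative for Mest (-3.98), Ntsr2 (-3.77), Aplnr (-2.44), Hr (-2.23), Fam20c (-2.11), Adrb3 (-1.62), Unc119 (-1.58) and Ednra (-1.49). For each the difference itself passed the test.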

How the results depend on the processing

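For the adult comparison, 542 genes passed. Pseudocounts of 0.5 and 5, a filter at 50, median-of-ratios, upper quartile and quantile rescaling gave 535, 553, 634, 542, 632 and 740. Without a filter 356 of 17144 passed. Library weights gave 1872, and covariates gave 2226 (Xist), 1844 (skeletal muscle), 3019 (mammary epithelium) and 4 (T, NK and B cells). Leaving out 1 library gave 36 to 351, and leaving out both 22 C replicates 1 and 3 gave 3. For the difference between ages, 387 genes passed, 373 in 1 fit over both tables, 395 with a pseudocount of 5, and 145 to 470 with 1 adult library left out. With the replicate number as a block 1666 genes passed in adults and 820 in the difference. Whether the numbers pair the samples cannot be told from 4 libraries per group. Same-numbered libraries deviated from their group means with correlations of -0.262, 0.768, 0.501 and 0.508, and 1 of 4 numbers correlated best with its own partner. The split by Xist followed the numbers at both temperatures.

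Of 118 named genes past the threshold in adults, 25 passed in each leave-one-out fit and 118 kept their direction there. Elovl3 and Fam20c also passed in each other alternative. Values that changed sign were those of genes not past the threshold: Fasn with quantile normalization (0.00), Bcl6 with library weights (-0.01) and with 1 library left out (-0.09 to 0.32 over the 8). The differences between ages of Cox8b, Cox7a1 and Adipoq did so with 1 library left out, over ranges of -0.41 to 0.21, -0.01 to 0.80 and -0.25 to 0.05. The causes of these moves were not tested. Depth, with the 4 libraries per group, limits low genes most, since a value near 1 is the worth of about 1 read.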

Other observations

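Replicates 1 and 2 of each temperature were low in Xist and replicates 3 and 4 high, and an interaction of temperature with this split was fitted after seeing the data. By limma 0 of 12118 genes passed, with 1423 at an unadjusted p under 0.05. List medians of the cold effect within low-Xist and high-Xist libraries were 1.46 and 1.31 for the thermogenic list, -0.66 and -0.64 for Schwann cell and nerve markers, and -0.72 and -1.07 for interferon-induced genes. They were 0.76 and 0.09 for glycolysis, and 4.09 and -2.92 for skeletal muscle markers.

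Genes that passed in each leave-one-out fit and are not described above were Naa25, Acss3, Tspan4, Cmklr1, Nagk, C2, Mapk8ip1, Nrep, Psmb10 and Naaa. Of these Naa25 (log2 fold change 1.11) and Acss3 (1.25) were higher at 4 C, and the lower ones ran from -0.85 for Nagk to -1.99 for Nrep.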
